A study of Mus musculus with 14 samples.

Results

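Fat from mice that were undernourished in the womb and then nursed by freely fed dams (UC) was compared with fat from mice that were never restricted (CC). The comparison takes 10 of the 14 arrays of the series, 5 UC and 5 CC, chosen by their group label. It runs over the 20380 of 22690 probe sets that the platform annotation assigns to 1 gene, which name 12393 genes. All animals were ICR mice, an outbred stock, labelled male and 3 weeks old, and the tissue was epididymal fat, a white depot beside the testis. CC pups (n = 5) had dams with free access to chow before and after birth. UC pups (n = 5) had dams given 50% less food in pregnancy than dams matched for the day of pregnancy, and free access during suckling. UU pups (n = 4), whose values are given beside a few results, had the restriction in both periods. Each value is a signal, the brightness of a probe set on an Affymetrix array, and each array stands for 1 RNA sample. The labels do not say whether pups of a group shared a dam, so p-values measure only the spread between these samples.

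White fat grows quickly in suckling mice. Its adipocytes take up fatty acids from circulating triglyceride through lipoprotein lipase, and they also make fatty acids from glucose and acetate. In that pathway cytosolic acetyl-CoA is carboxylated, elongated by fatty acid synthase with NADPH, desaturated and esterified to triglyceride. Transcription factors of the SREBP family, with NF-Y and Sp1 as frequent partners on promoters, and the glucose-responsive ChREBP raise the transcription of many of these enzymes. SREBP-2 acts mainly on the cholesterol pathway and SREBP-1c mainly on fatty acid synthesis. The title of the series names lipogenic genes and rapid growth after birth.

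The arrays did not all carry the same tissue or sex, and these differences cross the groups. In CC replicate 2 and UC replicate 5 the X-inactivation RNA Xist had signals of 3981 and 5642, against 481 to 1324 on the other 12 arrays, and the Y-linked Eif2s3y had 58.6 and 7.9, so that these 2 arrays go against their label of male. The same 2 arrays also carried transcripts of brown fat, the heat-producing fat. Ucp1, the uncoupling protein that defines brown fat, had signals of 8935 and 17041 there and 18.7 to 642 elsewhere. Cidea, a lipid droplet protein abundant in brown fat, had 14488 and 7923 there and 16.4 to 332 elsewhere. Epididymal markers were low on CC replicates 2 and 4 and UC replicates 2 and 5. Gpx5, a glutathione peroxidase of the epididymis, was at 409.6, 828, 857 and 1155 on these 4 arrays and at 5711 to 69624 on the other 10. Skeletal muscle transcripts were high on CC replicates 2 and 5, with Acta1, the muscle actin, at 7453 and 9065 and at 25.4 to 873 elsewhere. The adipocyte markers Fabp4, Adipoq and Car3 were bright on every array, and the summed signal of 10 adipocyte markers was 370380 to 582930 in CC and 390050 to 728730 in UC, so these ranges overlap. In bulk fat, fewer cells of a type and less RNA per cell cannot be told apart.

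Liver transcripts were higher in UC, and the mean 3' to 5' ratio of control transcripts was higher there too, with overlap. The summed signal of the 13 liver markers on the array was 3733 to 14202 in CC and 14639 to 99235 in UC, and UC replicate 2 was the highest. These ranges do not overlap, but a sum is weighted to its brightest members. Serpina1b alone gave 6434 of the 20181 in UC replicate 1. In UU the sum was 6022 to 8449, inside the CC range, while the mean log2 level of the markers was 8.35 to 8.79, beside 7.53 to 8.44 in CC. Taken without the filter on dim probe sets, which some liver markers pass only through UC, 13 of the 13 markers were higher on average in UC. The defining marker Alb, albumin, was at 824, 550.4, 707, 962 and 725 in CC and 1758, 25660.0, 1324, 3190.5 and 1434 in UC. The mean log2 level of the liver markers was 8.11 ± 0.37 (SD) in CC and 9.59 ± 1.51 in UC (difference 1.48, two-sided exact permutation test, p = 0.0317). On that scale UC replicate 5 lay inside the CC range, and without UC replicate 2 the difference was 0.86 (two-sided exact permutation test, p = 0.0635), while leaving out other single arrays gave 1.34 to 1.81 with p from 0.0159 to 0.0635. The log2 ratio of the 3' to the 5' control probe sets of Gapdh and Actb, a measure that increases when RNA is degraded, was 0.71 ± 0.33 (SD) in CC and 1.22 ± 0.36 in UC (difference 0.51, two-sided exact permutation test, p = 0.0794). The highest ratios of these 10 arrays were 1.63 in UC replicate 1 and 1.59 in UC replicate 4. Epididymal marker levels differed by -0.52 between the groups in log2 units (two-sided exact permutation test, p = 0.595).

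**Figure D1:**
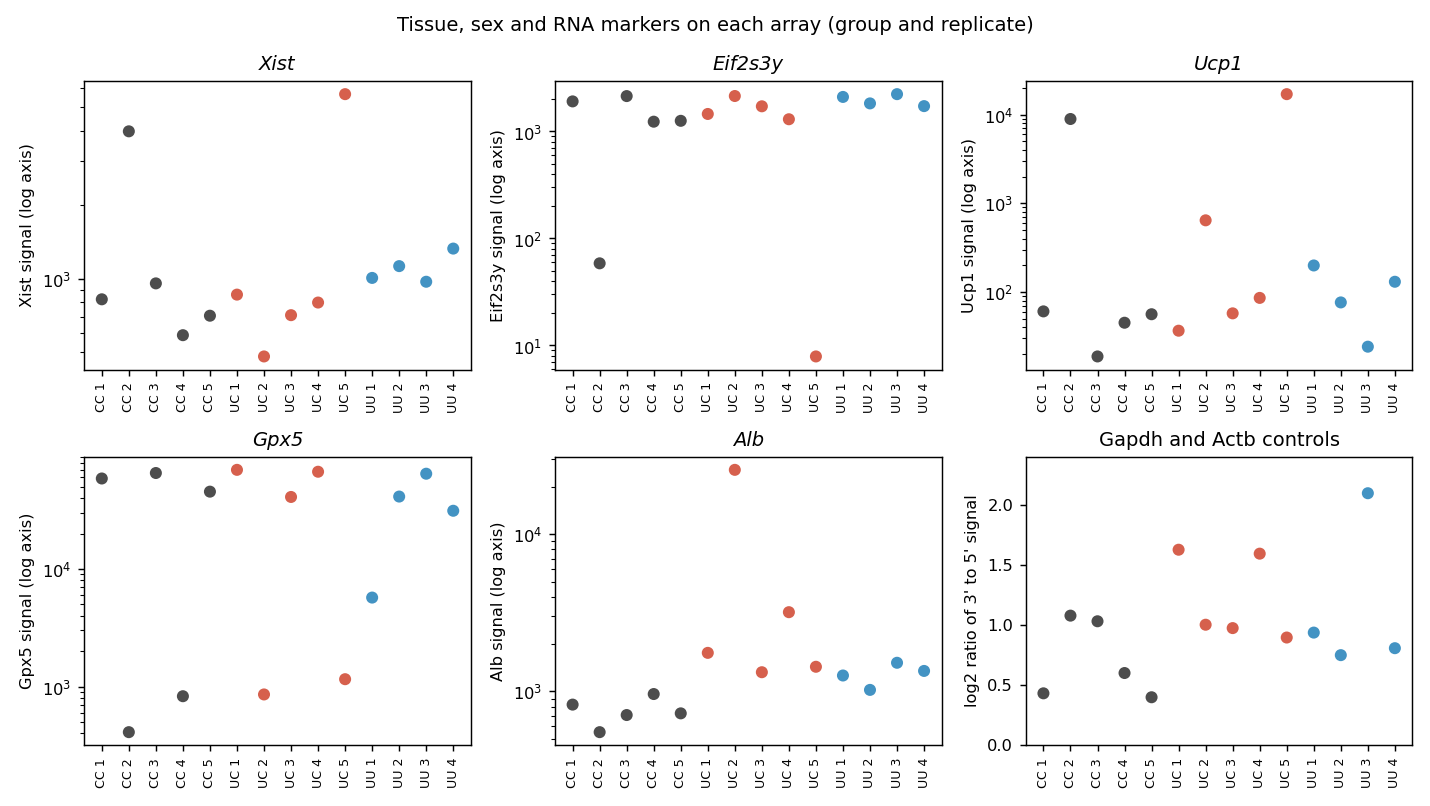
Signal of Xist, Eif2s3y, Ucp1, Gpx5 and Alb on each of the 14 arrays (log axes), and the log2 ratio of 3' to 5' control signal (linear axis, last panel). Black points are CC, red UC and blue UU. CC replicate 2 and UC replicate 5 stand apart for Xist, Eif2s3y and Ucp1, and all 5 UC arrays lie above all 5 CC arrays for Alb.

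Across the whole table no probe set separated UC from CC at the threshold used. Of 12228 probe sets tested with limma on log2(signal + 32), 0 had a Benjamini-Hochberg adjusted p under 0.05 (0.0%), and the smallest adjusted p was 0.462. At an unadjusted p under 0.05 there were 515 probe sets higher in UC (4.21%) and 616 lower (5.04%), where 611.4 in both directions together would pass if no probe set differed. Of all tested probe sets 46.3% were above 0 and 53.7% below, and the balance depended on how the arrays were scaled, with 699 higher and 429 lower when each array was centred on its median. All 5 UC arrays lay above all 5 CC arrays for 118 probe sets (0.965%) and below them for 109 (0.891%). Taking 1 probe set for each of 8164 genes, the brightest, 366 genes were higher at an unadjusted p under 0.05 (4.48%) and 315 lower (3.86%). Differences of more than 1 on the log2 scale, a factor of 2, were present for 35 probe sets on the higher side and 75 on the lower side. The median standard error of a difference was 0.22. The number of arrays limits this precision, and since nothing passed, every difference given from here on for UC against CC is a value that was not called.

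**Figure D2:**
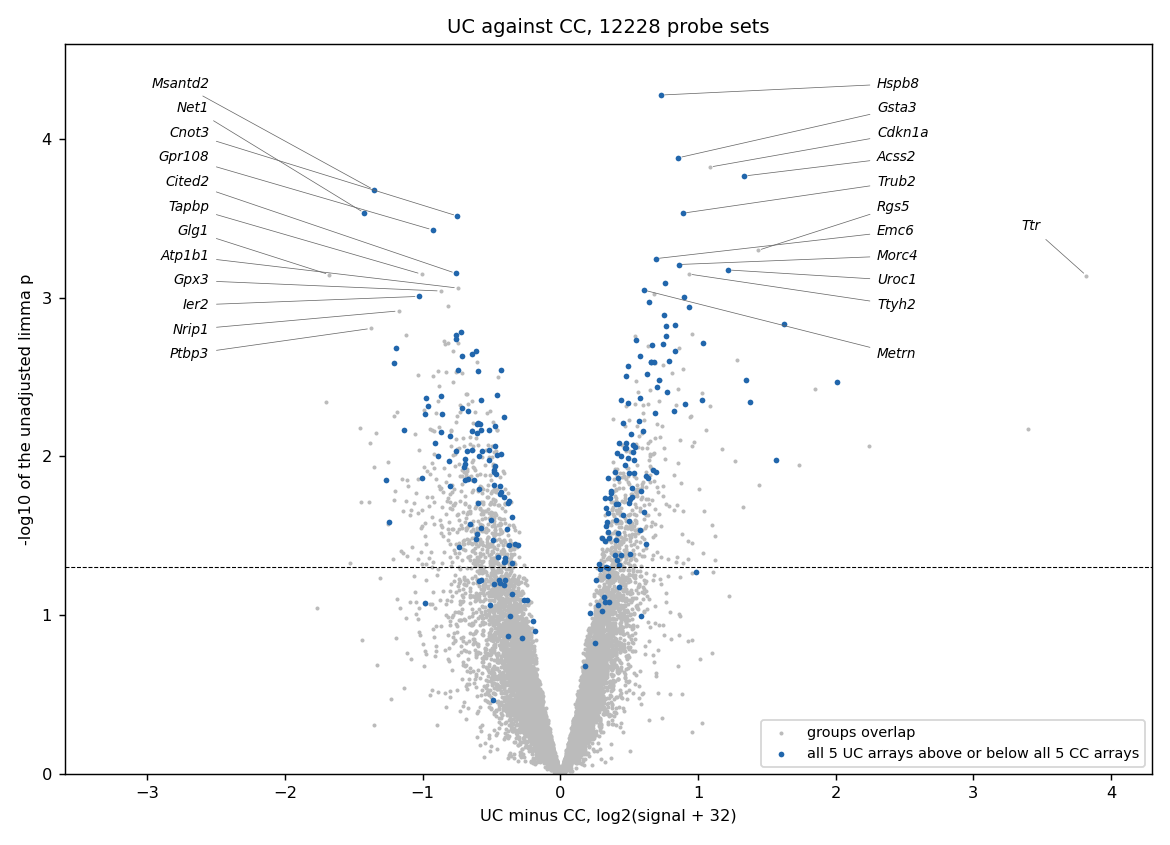
Log2 difference UC minus CC (x axis) against -log10 of the unadjusted limma p (y axis) for 12228 probe sets. Blue points are the probe sets whose UC and CC arrays do not overlap (118 to the right of 0, 109 to the left), the dashed line is an unadjusted p of 0.05, and the 12 genes of smallest p on each side are named. Ttr lies farthest to the right at 3.82.

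Genes of fatty acid synthesis had the highest median of the 40 pathway lists. These lists were chosen with earlier results of these data known, so their ranks and counts are descriptions only. Of 20 members tested, 16 were above 0 (49.3% of all genes were), with a median of 0.30 beside -0.0048 for all 8164 genes. At an unadjusted p under 0.05 there were 5 members higher (4.48% of all genes) and 0 lower, the groups did not overlap for 3 members (0.98% of all genes), and 0 members were called (0.0%). Those 3 members are Acss2, Fasn and Pnpla3, and Hmgcs1 of the cholesterol pathway also had groups that do not overlap. Their promoters are shown because these 4 are the lipid synthesis genes whose arrays separate completely. Each is the RefSeq sequence of GRCm38.p6 from 250 bases before to 50 bases from the start of transcription, in the direction of the gene, for Acss2 at chr2:155517793-155518092 (plus strand), Fasn at chr11:120824498-120824797 (minus strand), Hmgcs1 at chr13:119690101-119690400 (plus strand) and Pnpla3 at chr15:84167566-84167865 (plus strand). Capitals mark matches to CCAAT, the core that NF-Y binds, on either strand (ATTGG on the strand shown), and to TCACNCCAC, a form of the sterol regulatory element, on either strand.
Acss2: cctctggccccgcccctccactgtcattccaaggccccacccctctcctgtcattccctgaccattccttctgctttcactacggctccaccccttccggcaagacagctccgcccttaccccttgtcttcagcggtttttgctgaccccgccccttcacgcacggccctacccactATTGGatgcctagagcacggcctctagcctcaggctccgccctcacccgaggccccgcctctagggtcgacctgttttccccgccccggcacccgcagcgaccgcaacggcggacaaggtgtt
Fasn: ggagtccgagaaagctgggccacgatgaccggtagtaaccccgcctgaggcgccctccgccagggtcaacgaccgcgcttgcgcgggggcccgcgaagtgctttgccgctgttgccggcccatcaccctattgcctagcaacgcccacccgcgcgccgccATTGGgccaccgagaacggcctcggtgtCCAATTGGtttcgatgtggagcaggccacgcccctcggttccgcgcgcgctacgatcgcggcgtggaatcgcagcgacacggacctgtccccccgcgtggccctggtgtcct
Hmgcs1: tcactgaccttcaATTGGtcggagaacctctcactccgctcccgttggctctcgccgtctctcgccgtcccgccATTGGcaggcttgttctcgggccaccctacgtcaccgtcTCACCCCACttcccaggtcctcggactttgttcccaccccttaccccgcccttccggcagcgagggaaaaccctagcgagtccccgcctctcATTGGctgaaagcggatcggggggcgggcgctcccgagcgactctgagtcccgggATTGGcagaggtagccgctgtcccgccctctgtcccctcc
Pnpla3: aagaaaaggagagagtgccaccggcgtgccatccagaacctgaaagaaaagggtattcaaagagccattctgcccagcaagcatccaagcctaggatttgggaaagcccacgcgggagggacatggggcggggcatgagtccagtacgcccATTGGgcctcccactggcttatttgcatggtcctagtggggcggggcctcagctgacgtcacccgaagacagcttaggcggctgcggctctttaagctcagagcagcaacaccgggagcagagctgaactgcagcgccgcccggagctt
CCAAT was matched 1 time in Acss2, 3 times in Fasn (of which 2 matches overlap), 4 times in Hmgcs1 and 1 time in Pnpla3, and 37.4% of 32817 promoter windows of this length hold at least 1 match. TCACNCCAC was matched only in Hmgcs1, beginning at position -137 from the start, and is present in 1.24% of windows. The E-box CACGTG was matched in none of the 4 and is present in 7.15% of windows. These matches describe the letters in the windows.

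Acss2, which makes acetyl-CoA from acetate in the cytosol, had signals of 2607, 4869.5, 2132, 2040.0 and 2998 in CC replicates 1 to 5 and 4964, 8576, 8246, 7606 and 6577 in UC replicates 1 to 5. The lowest UC array lay just above CC replicate 2, the highest CC array, and the other 4 CC arrays lay at or below 2998. The difference was 1.34 ± 0.27 (SE, n = 5 and 5) on the log2(signal + 32) scale, 2.52-fold when that difference is taken out of log2 (limma adjusted p = 0.462), and a second probe set gave 0.72. Fasn, the fatty acid synthase, was at 22095, 20178, 19138, 15015 and 23279 in CC and at 25398, 54610.0, 37705, 52131 and 39272 in UC. Only UC replicate 1 was near the CC range, and the difference was 1.03 ± 0.31. Pnpla3, a lipid droplet enzyme switched on with lipogenesis, was at 11642, 14206, 21114, 12880.0 and 14044 in CC and 31479, 52968, 32456, 53794 and 25705 in UC. UC replicates 2 and 4 were the highest for both Fasn and Pnpla3, and the Pnpla3 difference was 1.38 ± 0.42, 2.59-fold. Without the 2 arrays high in Xist the differences were 1.56 for Acss2, 1.05 for Fasn and 1.51 for Pnpla3. Once the liver marker level was added to the model they were 1.27, 0.76 and 0.97.

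For the remaining members described here the groups overlapped. Thrsp, a small protein that accompanies lipogenesis, was at 15925, 16035, 10116, 15438 and 23513 in CC and 16714, 53651, 34040.0, 41275 and 29501 in UC, where UC replicate 1 lay among the CC arrays (difference 1.06 ± 0.34, a dimmer probe set 0.15). Pgd, a dehydrogenase of the pentose phosphate pathway that yields NADPH, was at 6013, 5976, 5833, 7385 and 6469 in CC and 7359, 12506, 9742, 12296 and 9879.8 in UC. Only UC replicate 1 fell below a CC array, CC replicate 4, and the difference was 0.69 ± 0.19, with 0.75, 0.68 and 0.17 from other probe sets. Me1, the malic enzyme that also yields NADPH, had a difference of 0.58 ± 0.28. Acly, which splits citrate into acetyl-CoA, had one of 0.52 ± 0.28, and Scd1, the main desaturase of fat, one of 0.31 ± 0.18 (a dimmer probe set -0.056). Elovl6, a fatty acid elongase, gave 0.25 ± 0.21. Acaca, the acetyl-CoA carboxylase of the cytosol, was at 584, 447, 413, 376 and 675 in CC and 403, 1112, 586, 419 and 425 in UC, with only UC replicate 2 above the CC range (0.15 ± 0.30). Among the 4 members below 0 were the desaturase Fads2, at -0.66 for its brightest probe set, and Acacb, the carboxylase of the mitochondrial surface, at -0.47 ± 0.39. The median of the list was 0.25 without the 2 arrays high in Xist, 0.29 without the 4 arrays low in epididymal markers and 0.23 once the liver level was in the model.

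**Figure D3:**
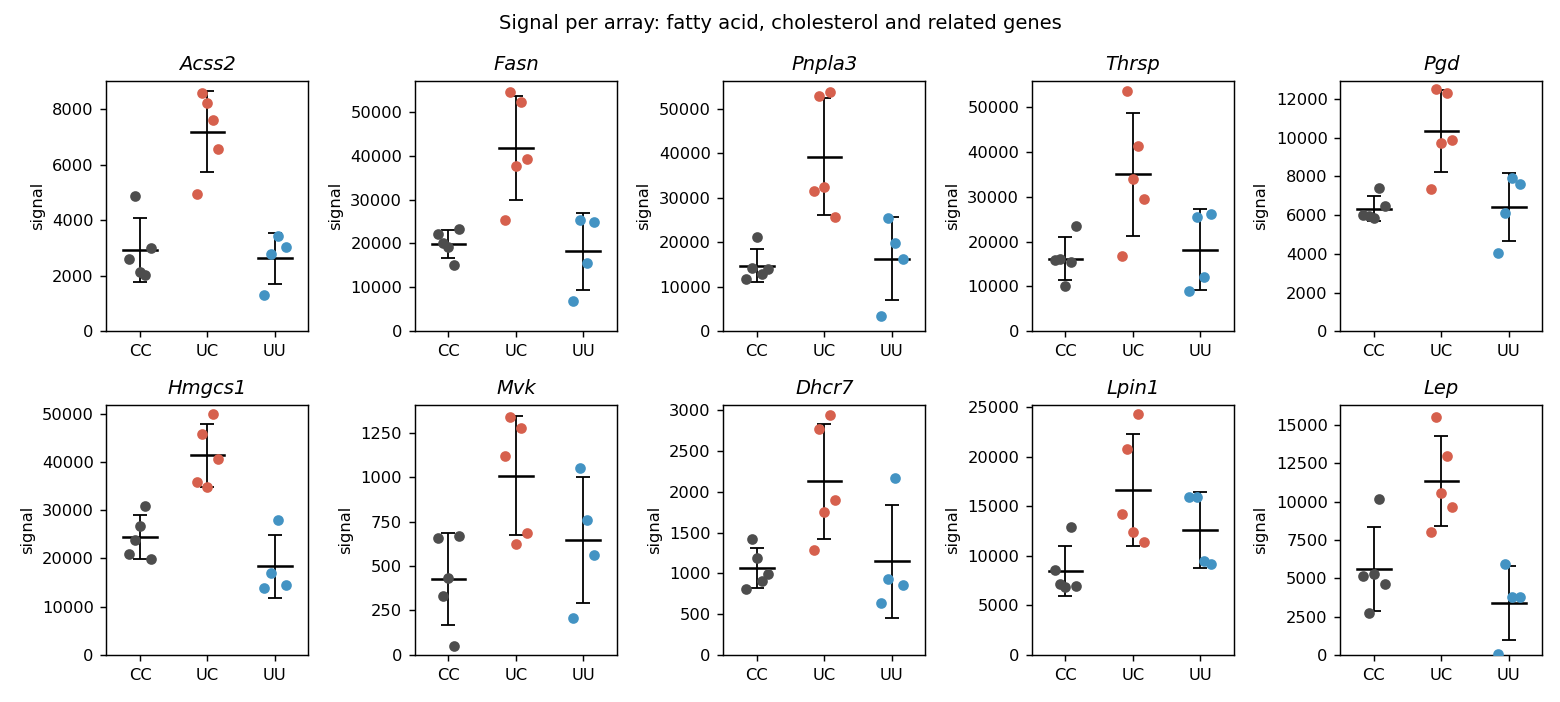
Signal on each array (linear axis from 0) for 10 genes of lipid synthesis and related functions, by group. Points are arrays (5 CC, 5 UC, 4 UU), the horizontal line is the group mean and the bar 1 SD. The UC points lie above all CC points for Acss2, Fasn, Pnpla3 and Hmgcs1, and overlap them for Thrsp, Pgd, Mvk, Dhcr7, Lpin1 and Lep.

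Genes of cholesterol synthesis had the second highest median of the pathway lists, at 0.25 over 17 members tested, of which 14 were above 0 (49.3% of all genes). At an unadjusted p under 0.05 there were 5 members higher (4.48% of all genes) and 0 lower (3.86%), and 1 member had groups that do not overlap (0.98%). That member, Hmgcs1, makes HMG-CoA for the pathway and was at 20959, 23800.0, 26829, 30784 and 19837 in CC and 35874, 45764, 34740.0, 49961 and 40620.0 in UC. The lowest UC array was replicate 3 and the highest CC array replicate 4, and the difference was 0.76 ± 0.20 (1.7-fold, limma adjusted p = 0.462). Of its 3 dimmer probe sets, 2 gave 0.50 and 0.54 and 1 gave -0.21. The other 4 members at an unadjusted p under 0.05 were picked out after their values were seen. Mvk, the mevalonate kinase that acts downstream of HMG-CoA reductase, was at 656, 330.5, 431, 49 and 672 in CC and 1119.6, 1342, 625, 1276 and 685 in UC. CC replicate 4 was the lowest array for Mvk, the groups overlapped, and the difference of 1.44 ± 0.53 was 0.90 without that array. A second Mvk probe set, left out by the filter on dim probe sets, gave -0.88 ± 0.38. Dhcr7, the last enzyme of one branch to cholesterol, was at 806, 1425, 1183, 903 and 988 in CC and 1284, 2775, 1752, 2942 and 1896 in UC, with 1 UC array inside the CC range (difference 0.95 ± 0.30). Sc5d, a sterol desaturase, gave 0.61 ± 0.27, and Lss, which closes the sterol rings, 0.39 ± 0.18. The 3 members below 0 were Fdps (-0.34 ± 0.39), Mvd (-0.25 ± 0.31) and Fdft1, enzymes of steps that lead to squalene. The median of the list was 0.18 without the 2 arrays high in Xist, and 0.11 without CC replicate 2 alone, so that 1 of the 2 arrays that go against their label moves it by more than 1.5 times.

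The regulators of these enzymes lay on both sides of 0. Of 15 tested, 7 were above 0 and 8 below, with a median of -0.0087 and 0 at an unadjusted p under 0.05 in either direction. Srebf1, which encodes SREBP-1, was at 12760.0, 8618, 12074, 12624 and 12133 in CC and 17393, 22886, 13064, 28559 and 11916 in UC. UC replicates 2 and 4 stood above all other arrays and UC replicate 5 lay inside the CC range (difference 0.62 ± 0.30). Adjusted for the liver level, the Srebf1 difference was 0.21. Mlxipl, which encodes ChREBP, gave 0.26 ± 0.20. Nfyc, a subunit of NF-Y, gave 0.26 ± 0.12. The brightest probe set of Srebf2, which encodes SREBP-2, gave -0.38.

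In triglyceride assembly 8 of 12 members were above 0, with a median of 0.20. Lpin1, the phosphatidate phosphatase that makes diacylglycerol, was at 8527, 7137, 6838, 12863 and 6899.6 in CC and 14198, 20802, 12420.0, 24307 and 11431 in UC. CC replicate 4 alone lay within the UC range, and the difference was 0.95 ± 0.25 (1.94-fold), with 0.82 from a second probe set. Agpat3, an acyltransferase of the preceding step, was the only member lower at an unadjusted p under 0.05 (3.86% of all genes were), at -0.55 ± 0.23. Dgat2, which adds the last acyl chain, gave 0.47 ± 0.38, with 0.021 from a dimmer probe set. Gpam, the first acyltransferase, gave -0.057 ± 0.17, with -0.75 from a dimmer one. The list median was -0.037 adjusted for the liver level and 0.078 without UC replicate 2, the array richest in liver transcripts.

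Lipases, droplet proteins and uptake genes were spread around 0. In the lipolysis and lipid droplet list 7 of 11 members were above 0 (median 0.031). Bscl2, seipin, a protein of droplet formation, was its only member at an unadjusted p under 0.05, where 4.48% of all genes were higher. The Bscl2 difference was 0.62 ± 0.23, and a dimmer Bscl2 probe set gave -0.015. The lipases Lipe and Pnpla2 gave -0.28 ± 0.34 and -0.23 ± 0.25. Among 9 uptake genes, Fabp5, a fatty acid binding protein, was at 31113, 45818, 27347, 37238 and 29590.0 in CC and 44988, 55287, 31880.0, 61249 and 50524 in UC (difference 0.50 ± 0.22, a dimmer probe set -0.18). Slc27a1, a fatty acid transporter that adipocytes move to the membrane under insulin, was at 4483, 7142, 3219.8, 3851 and 2837 in CC and 1927, 3806, 1080.0, 3271 and 1728 in UC. The UC arrays overlapped the CC arrays, the lowest was UC replicate 3, and the difference was -0.92 ± 0.31. Lpl, the lipoprotein lipase, gave 0.40 ± 0.21 and Cd36, a fatty acid receptor, -0.031 ± 0.22. Dimmer Cd36 probe sets gave 0.49 and -0.21.

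**Figure D4:**
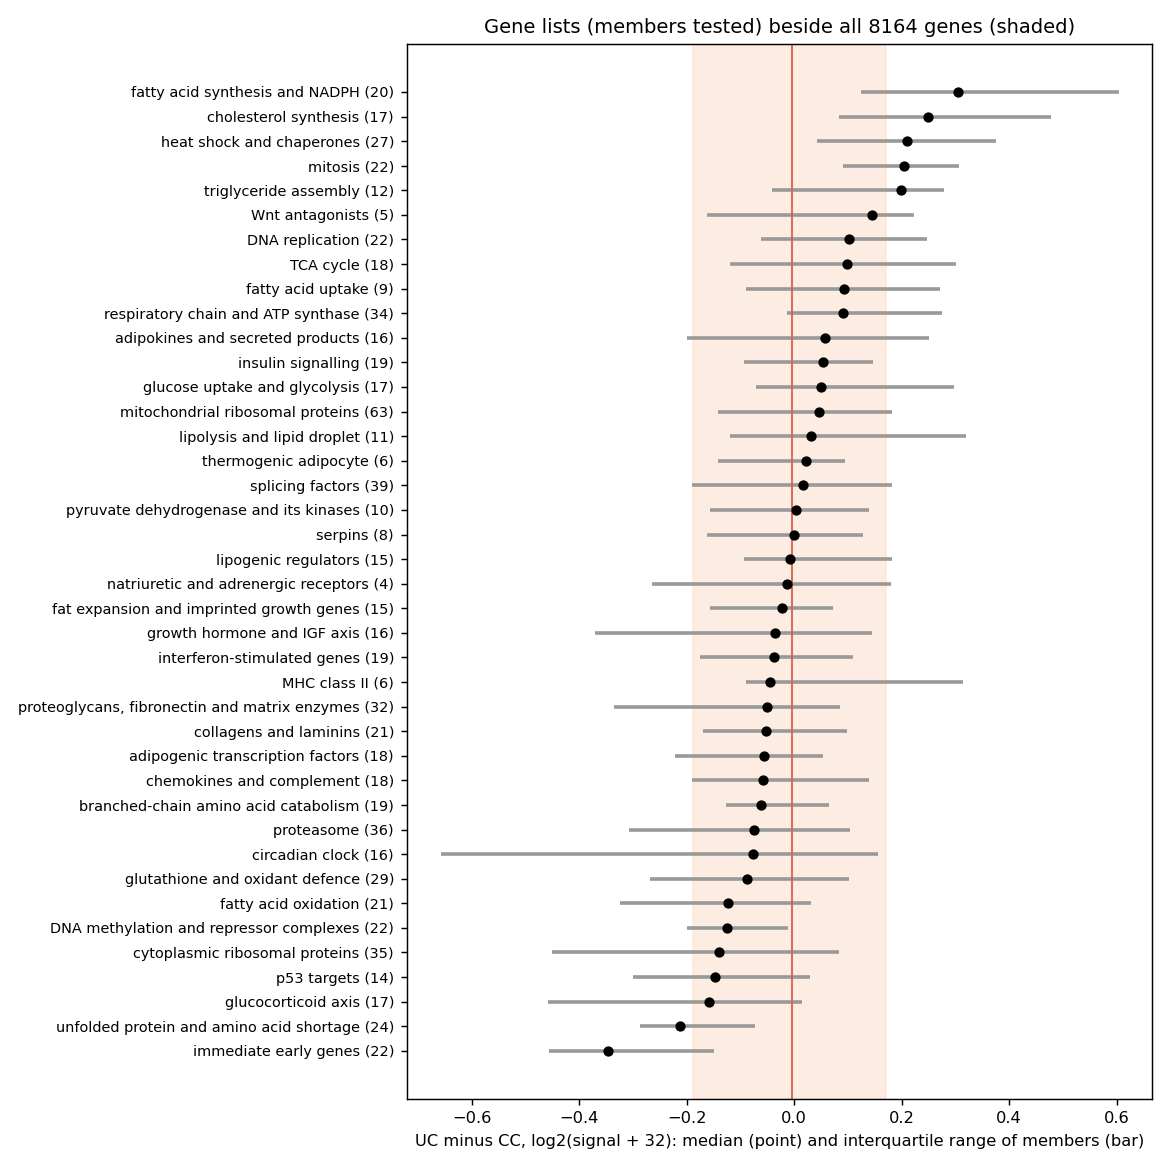
Median (point) and interquartile range (bar) of the log2 differences UC minus CC over the tested members of each pathway list, with the number of members in brackets. The red line and shading are the median and interquartile range of all 8164 genes. Fatty acid synthesis lies at the top with a median of 0.30 and immediate early genes at the bottom with -0.35.

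Genes of glucose use and of mitochondria gave small differences. In the glycolysis list 10 of 17 members were above 0 (median 0.049). Pfkl, the liver-type phosphofructokinase, was at 4287, 4462, 3704, 3857 and 3937 in CC and 6732, 6762, 4516, 6311 and 4703 in UC. Its lowest UC array lay just above its highest CC array (difference 0.50 ± 0.20), and a second probe set gave 0.081. The glucose transporter Slc2a4 gave -0.072 ± 0.23. In the respiratory chain 24 of 34 subunits were above 0 (median 0.092) and 4 were higher at an unadjusted p under 0.05 (4.48% of all genes). Ndufs8, a subunit of complex I, was at 9606, 13675, 9072, 8382 and 8422 in CC and 17361, 13463, 11064, 19085 and 13830.0 in UC, where CC replicate 2 was the CC array inside the UC range (difference 0.60 ± 0.19). Cycs, cytochrome c, gave 0.55 ± 0.21, with 0.46 and -0.016 from dimmer probe sets, again with CC replicate 2 as the highest CC array, at 44297. The brown fat transcripts of CC replicate 2 and UC replicate 5 stand beside these values, and without both arrays the median of the chain was 0.17. In fatty acid oxidation 14 of 21 members were below 0 (50.7% of all genes were), with a median of -0.12 that was 0.091 without CC replicate 2. Ehhadh, a peroxisomal enzyme of oxidation, was at 1392, 2719.6, 1101, 1490.2 and 1215 in CC and 707, 1436, 1023, 528 and 777 in UC. CC replicate 2 was again the highest, only UC replicate 2 lay inside the CC range, and the difference was -0.80 ± 0.26. Cpt1a, which controls entry of fatty acids into mitochondria, gave -0.31 ± 0.20, with 0.046 and -0.13 from dimmer probe sets.

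Other lists of fuel use held 2 members or fewer at an unadjusted p under 0.05, where 4.48% of all genes were higher and 3.86% lower. Branched-chain amino acid breakdown and insulin signalling each had 1 member higher and 1 lower (5.3% of members each). The other lists of this paragraph had 0. In the TCA cycle 12 of 18 members were above 0 (median 0.098). Mdh2, a malate dehydrogenase, was at 25321, 43929, 25817, 23916 and 22977 in CC and 33363, 37430.0, 27037, 46154 and 38324 in UC, and Cs, citrate synthase, at 11609, 23439, 12701, 12566 and 12200.0 in CC and 15446, 21230.0, 14114, 18600.0 and 21176 in UC. For both genes CC replicate 2, 1 of the 2 arrays with brown fat transcripts, was the highest CC array, and the differences were 0.38 ± 0.19 and 0.36 ± 0.19. Dimmer Cs probe sets gave 0.15 and -0.31. In branched-chain amino acid breakdown 14 of 19 members were below 0 (median -0.062), with 0.47 ± 0.16 for Mmut and -0.40 ± 0.18 for Pccb, enzymes that handle propionyl units. In insulin signalling 11 of 19 members were above 0 (median 0.053). Foxo1, the factor that insulin keeps out of the nucleus, gave 0.48 ± 0.20, and Pik3r1, the regulatory subunit of PI3 kinase, -0.63 ± 0.29. Of 10 genes of pyruvate dehydrogenase and its kinases 6 were above 0 (median 0.0032), with -0.48 ± 0.32 for Pdk1 and -0.26 ± 0.15 for Pdk2. Of 6 thermogenic genes that passed the filter 3 were above 0, and Ppargc1a, a coactivator of mitochondrial genes, gave 0.30 ± 0.23.

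Hormones of fat and the factors of adipocyte identity had list medians near 0. Lep, leptin, which is secreted in proportion to fat mass, was at 5157, 2747, 5288, 10200.0 and 4661 in CC and 8007, 15556, 10538, 13012 and 9666 in UC. CC replicate 4 lay inside the UC range and the other 4 CC arrays below it. The difference was 1.10 ± 0.77, and its SE pools the spread of all 3 groups, in which UU replicate 1 stood far below the others at 85.6. Adipoq, adiponectin, gave 0.092 ± 0.23. Apoe, the lipid-carrying apolipoprotein that fat also secretes, was at 32966, 24647, 18124, 33851 and 18096 in CC and 11690.0, 18812, 14122, 9864 and 15028 in UC. UC replicate 2 was the 1 UC array inside the CC range (-0.86 ± 0.35), and with the 3' to 5' ratio in the model the difference was -0.30. Of 18 adipogenic transcription factors, 6 were above 0 and 12 below (median -0.056). Pparg and Cebpa, the factors that define the adipocyte, gave -0.094 ± 0.28 and 0.027 ± 0.24.

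The 2 factors of that list whose groups do not overlap pointed in opposite directions. Zbtb16, a zinc finger factor induced by glucocorticoids, was at 1204, 1131, 990.2, 1417 and 732 in CC and 1990.2, 3949.8, 1447, 2102 and 2293 in UC. The highest array was UC replicate 2, and the difference was 1.04 ± 0.28, with 0.11 from a second probe set. Stat5b, which relays growth hormone signals, was at 1013, 1046, 1119, 1105 and 1095 in CC and 653, 845, 872, 352 and 746 in UC, with every UC array below every CC array (0.796% of all genes) and a difference of -0.67 ± 0.24. The CC arrays of Stat5b lay within 1013 to 1119, so the spread of this probe set was in UC. In the growth hormone and IGF list, which shares Stat5b, 8 of 16 members were below 0. Cish, a feedback target of STAT5, was at 5498, 5048, 4509, 7717 and 3260.1 in CC and 3069, 2839.7, 2718, 4056 and 4273 in UC (-0.58 ± 0.25), and was picked out after its values were seen. Igf1 gave 0.39 ± 0.29 (dimmer probe sets 0.28 and -0.35) and Igf2 0.44 ± 0.23. Mest, an imprinted gene whose level follows the expansion of fat, was at 19643, 5617, 16853, 31842 and 15287 in CC and 14751, 19812, 17988, 15959 and 13278 in UC, with a difference of 0.059 ± 0.36. CC replicate 2 was far below the other CC arrays for Mest. Of the 15 genes of fat expansion and imprinted growth 8 were below 0 (median -0.022), and of 5 Wnt antagonists 3 were above 0 (median 0.14), with 0.42 ± 0.29 for Ccn5 and -0.16 ± 0.22 for Dkk3. Of 17 genes of the glucocorticoid axis, which also holds Zbtb16, 11 were below 0 (median -0.16).

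Immediate early genes, which are transcribed within minutes of a stimulus, had the lowest median of the pathway lists. Of 22 tested, 18 were below 0 (50.7% of all genes), with a median of -0.35. At an unadjusted p under 0.05 there were 5 lower (3.86% of all genes) and 0 higher (4.48%), and for 2 of them every UC array was below every CC array (0.796%). Ier2, a small nuclear protein of this class, was at 1113, 708, 742, 971 and 923 in CC and 380.1, 379.5, 393, 545 and 394 in UC. The highest UC array, replicate 4, was still below the lowest CC array, and the difference was -1.03 ± 0.26 (CC 2.04-fold over UC, limma adjusted p = 0.462). Nr4a1, an orphan nuclear receptor, was at 1445, 2037, 1453, 1405 and 1362 in CC and 1306, 861, 1139, 960.5 and 1223 in UC. CC replicate 2 was high for Nr4a1 and the other 4 CC arrays lay within 1362 to 1453 (-0.48 ± 0.16). The remaining 3 were picked out after their values were seen. Egr1, a zinc finger factor, was at 3186, 6482, 2742, 2656 and 3496 in CC and 2121, 1992, 3388, 2478 and 1043 in UC (-0.76 ± 0.33). Dusp1, a phosphatase of MAP kinases, gave -0.65 ± 0.23 and Zfp36, which destabilises inflammatory mRNAs, -0.40 ± 0.16. Fos, the best known member, was at 900.4, 5206, 2196, 1946 and 962 in CC and 1089.9, 1232, 1369.6, 1677 and 1789 in UC, where CC replicate 2 alone stood high, and its difference of -0.36 ± 0.39 was 0.018 without that array. The median of the list was -0.20 without CC replicate 2, -0.15 without the 4 arrays low in epididymal markers and -0.07 adjusted for the liver level. The Ier2 difference was -1.02 without those 4 arrays, -1.06 with the liver covariate and -0.71 with the 3' to 5' ratio as a covariate.

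Genes of the circadian clock included lower values for Nr1d2, Per1, Dbp, Per3 and Tef and a higher value for Clock. Of 16 tested, 7 were above and 9 below 0 (median -0.076), with 5 lower (3.86% of all genes) and 1 higher (4.48%) at an unadjusted p under 0.05. The 5 lower ones are known as targets of the CLOCK and BMAL1 factors. Nr1d2, which encodes the repressor REV-ERB beta, was at 3852, 3848, 5720.1, 3816 and 2255 in CC and 2587, 1738, 2739, 1819.9 and 1659.5 in UC. Only CC replicate 5 fell inside the UC range (-0.85 ± 0.23). Per1, a period gene, was at 1757, 770.4, 2101, 1731 and 1278 in CC and 909.9, 799.7, 901, 576 and 868 in UC, with CC replicate 2 inside the UC range (-0.83 ± 0.24). Dbp, Per3 and Tef, picked out after their values were seen, gave -0.85 ± 0.36, -0.60 ± 0.24 and -0.48 ± 0.18. The 1 higher gene, also picked out afterwards, was Clock itself, the activating factor, at 1587, 1697, 1608, 1583 and 1328 in CC and 1684, 2874, 2271, 2694 and 1808 in UC (0.50 ± 0.17). The median of the list was 0.011 without the 2 arrays high in Xist and 0.045 without UC replicate 5 alone, so its sign rests on these arrays, while Nr1d2 gave -0.76 and Per1 -1.08 without them.

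Chaperones lay mostly above 0 and genes of the unfolded protein response mostly below. In the heat shock and chaperone list 21 of 27 members were above 0 (49.3% of all genes), with a median of 0.21. At an unadjusted p under 0.05 there were 6 higher (4.48% of all genes) and 0 lower (3.86%). Hspb8, a small heat shock protein that works with BAG3 in clearing damaged proteins, gave the smallest p of the whole table. Its probe set of smallest p was at 930.0, 891, 964, 875 and 1223 in CC and 1685, 1595, 1526, 1779 and 1578 in UC. The lowest UC array stood clear of the highest CC array, and the difference was 0.73 ± 0.13 (1.66-fold, limma adjusted p = 0.462). The brightest Hspb8 probe set gave 0.76 ± 0.18, also without overlap, and the dimmest 0.15. Hsph1, a large chaperone that recharges HSP70, was at 2116, 911, 2479, 2171 and 2032 in CC and 2819.6, 3392, 2891, 2692 and 2649 in UC (0.63 ± 0.23). CC replicate 2 was low for Hsph1, and the other 4 CC arrays lay within 2032 to 2479. Hspa8, the constitutive HSP70, gave 0.39 ± 0.14 from its brightest probe set and -0.25, -0.15 and -0.045 from 3 dimmer ones. Dnajb4, Chordc1 and Cct3, picked out after their values were seen, gave 0.64 ± 0.17, 0.44 ± 0.18 and 0.38 ± 0.18. Dimmer tested Cct3 probe sets gave 0.37, 0.21, 0.10 and -0.36, and a Dnajb4 probe set left out by the filter gave -0.91 ± 0.36. In the unfolded protein and amino acid shortage list 19 of 24 members were below 0 (median -0.21). Sdf2l1, a partner of the chaperone BiP, was at 1327, 451, 632, 441 and 1268 in CC and 319.7, 282, 296, 444 and 502 in UC (-0.97 ± 0.42), and Pdia3, a disulfide isomerase of the ER, gave -0.67 ± 0.31. With the 3' to 5' ratio in the model the Sdf2l1 and Pdia3 differences were -0.35 and -0.11.

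Genes of mitosis lay mostly above 0 without any of them standing out, and genes of DNA replication lay on both sides of 0. In the mitosis list 21 of 22 members were above 0 (49.3% of all genes), with a median of 0.21 and 0 members at an unadjusted p under 0.05. Ccna2, cyclin A, was at 985, 1093, 1568, 1739 and 1840.5 in CC and 1977, 1235, 2005, 2024 and 2731 in UC (0.46 ± 0.23). Mad2l1, of the spindle checkpoint, gave 0.34 ± 0.18. The list median was 0.11 without UC replicate 3 and 0.44 adjusted for the liver level. In DNA replication 13 of 22 were above 0, and the median of 0.10 was -0.0099 without CC replicate 4. At an unadjusted p under 0.05 there were 2 replication genes higher (4.48% of all genes) and 0 lower (3.86%). Rpa1, which coats single-stranded DNA, gave 0.42 ± 0.18, with -0.094 from a dimmer probe set. Cdkn1a, the inhibitor p21 that stops cells from dividing and is a target of p53, was at 2951, 2022, 3056, 1742 and 4563 in CC and 6933, 6529.5, 5511, 5918 and 4351 in UC. CC replicate 5 was the CC array inside the UC range, and the difference was 1.08 ± 0.22 (2.12-fold). In the list of p53 targets that holds it, 9 of 14 members of that list were below 0, with a median of -0.15.

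Genes of oxidant defence went both ways. Gsta3, a glutathione transferase, was at 599, 525, 642, 745 and 682 in CC and 1196, 1193, 944, 1623 and 1023 in UC, without overlap (0.86 ± 0.17), and a dimmer probe set gave -0.13. Gpx3, the secreted glutathione peroxidase, was at 13625, 15650.0, 10481, 8657 and 9957 in CC and 6553, 9764, 5939.6, 5859.5 and 4207 in UC. UC replicate 2 was the 1 UC array inside the CC range (-0.87 ± 0.21). Of the 29 members 13 were above 0 and 16 below, with a median of -0.088.

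Among the genes of smallest p, several were described by 1 probe set while a brighter one of the same gene gave little. On the higher side, Rgs5, a G protein regulator typical of pericytes, was at 1157, 4072, 2075, 5038 and 1775 in CC and 5789.5, 5721, 5019, 7140.2 and 11133 in UC (1.43 ± 0.33), with 0.019 from its brightest probe set and -0.23 from another tested one. Uroc1, a histidine-degrading enzyme typical of liver, gave 1.22 ± 0.29, and -0.072 from a brighter probe set. Ttr, transthyretin, a plasma protein made by liver, was at 796, 94.6, 281, 38 and 375 in CC and 6491, 32323, 1079, 5663 and 361 in UC. UC replicate 5 lay inside the CC range, and the difference of 3.82 ± 0.91 was 1.53 adjusted for the liver level. Trub2, a pseudouridine synthase of mitochondrial RNA, was at 1431, 1367, 1303, 1007 and 1222 in CC and 1853, 2724, 2502, 2819.9 and 2039 in UC (0.89 ± 0.19), with 0.69 and 0.12 from 2 other probe sets. Emc6, of the complex that inserts membrane proteins, was at 2043, 2041, 2231, 1961 and 2263 in CC and 2737, 4799, 2719, 4123 and 3184 in UC (0.69 ± 0.16, second probe set 0.40). Morc4 gave 0.86 ± 0.20, Metrn, a secreted neurotrophic factor, 0.61 ± 0.15 and Ttyh2 0.93 ± 0.22.

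On the lower side, Net1, an exchange factor that activates RhoA, was at 1093, 1701, 914, 1022 and 938 in CC and 369, 318, 551, 222 and 618 in UC, without overlap (-1.42 ± 0.31, CC 2.68-fold over UC). Msantd2 was at 721, 937, 621, 1020.4 and 979.5 in CC and 236, 523, 450.0, 297 and 164 in UC, without overlap (-1.36 ± 0.28). Cited2, a coregulator that binds CBP and p300, was at 3644, 5965, 3576, 5236 and 2870.0 in CC and 2594, 2597, 2257, 2540.0 and 2115 in UC, without overlap (-0.76 ± 0.18), and a dimmer probe set gave -0.81. Its difference was -0.44 without the 4 arrays low in epididymal markers. Cnot3, of the deadenylase complex that shortens mRNA tails, gave -0.75 ± 0.16 and Gpr108 -0.93 ± 0.21, both without overlap. For Tapbp, which loads peptides on MHC class I, the probe set of smallest p gave -1.01 ± 0.24 and a brighter one -0.087. For Nrip1, a corepressor of nuclear receptors in fat, the values were -1.17 ± 0.30 and -0.012, and for the Golgi protein Glg1 -1.68 ± 0.40 and -0.12. Another Glg1 probe set gave 0.038. Atp1b1, a subunit of the sodium pump, gave -0.74 ± 0.18 and, from 3 other tested probe sets, -0.81, -0.33 and -0.30. Ptbp3, a splicing regulator, gave -1.38 ± 0.36, with -0.52 and -0.04 from other probe sets. Over the table, 1308 of 2738 genes with several tested probe sets (47.8%) had all of them on the same side of 0, and of 246 genes whose brightest probe set had an unadjusted p under 0.05 this held for 150 (61.0%).

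Lists of protein synthesis and breakdown held members on both sides of 0. Of 35 cytoplasmic ribosomal proteins 21 were below 0 (median -0.14), and Rpl11, of the large subunit, was at 18436, 13768, 12441, 14922 and 22756 in CC and 8465, 9831, 12167, 8413 and 11174 in UC, without overlap (-0.70 ± 0.24). Of the 35, 5 were lower (3.86% of all genes) and 2 higher (4.48%) at an unadjusted p under 0.05. Ribosomal protein genes have many near-identical pseudogenes, so these probe sets may not be specific. Of 36 proteasome genes 24 were below 0 (median -0.075), and the highest member was at 1.27. At an unadjusted p under 0.05 there were 5 proteasome genes higher (4.48% of all genes) and 2 lower (3.86%). Psmd14, the subunit that removes ubiquitin, gave 0.37 ± 0.14 without overlap, and Psmb8, a subunit of the immunoproteasome, -0.72 ± 0.25. Of 63 mitochondrial ribosomal proteins 36 were above 0 (median 0.046), and of 39 splicing factors 20 were (median 0.017), with 0.32 ± 0.14 for Sf3a2 without overlap and 0.058 for its second probe set. In the list of DNA methylation and repressor complexes 17 of 22 were below 0 (median -0.12). Hdac3, a histone deacetylase, gave -0.49 ± 0.16 and Dnmt3b, a DNA methyltransferase, 0.46 ± 0.19.

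Matrix, endothelial and macrophage lists gave medians near 0, while smooth muscle and epithelial lists lay lower. Of 21 collagens and laminins 12 were below 0 (median -0.053), with -0.30 ± 0.16 for Col1a2. Of 32 other matrix genes 23 were below 0 (median -0.051). Timp3, an inhibitor of matrix proteases, had groups that do not overlap (-0.38 ± 0.24), and its 3 dimmer probe sets gave 0.048, -0.011 and -0.26. Of 19 interferon-stimulated genes 11 were below 0 (median -0.038), and of 18 chemokines and complement genes 9 were, with -0.64 ± 0.28 for the complement protease C1ra. Of 6 MHC class II genes 4 were below 0, and of 8 serpins 4 were. Among 13 macrophage markers 7 were above 0 (median 0.025), and summed signals overlapped at 51460 to 129710 in CC and 58978 to 158430 in UC. Among 11 endothelial markers 6 were below 0 (median -0.046). Cdh5 and Pecam1, both junction proteins that define endothelium and picked out after their values were seen, gave -0.95 ± 0.34 and -0.72 ± 0.30, while Egfl7 gave 0.077 ± 0.17. Dimmer Egfl7 probe sets gave 0.18, -0.46 and -0.36. Of 8 smooth muscle markers 7 were below 0, with a median of -0.28 that was 0.073 adjusted for the liver level, and summed signals overlapped at 28917 to 66506 in CC and 28801 to 91316 in UC. All 13 general epithelial markers were below 0, with a median of -0.35 that was -0.90 without CC replicate 2 and -0.14 without UC replicate 2, and summed signals overlapped at 9055 to 70678 in CC and 10278 to 59743 in UC. Ighm, the IgM heavy chain of B cells, was at 3861, 3486, 5104, 4098 and 4000.4 in CC and 6861, 2169.9, 15820.0, 17319 and 13687 in UC. The UC arrays stood above CC except UC replicate 2, and the difference was 1.12 ± 0.52, with 0.71, 0.17 and 0.0077 from dimmer Ighm probe sets. Only 2 of 10 T and B cell markers passed the filter, and Ms4a1, CD20, the other one, gave 0.26 ± 0.21. The part of these cell types in the differences of other genes was not tested.

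Some of these differences moved by over 1.5 times with RNA quality, liver transcripts, the scaling of the arrays or the arrays used, and the part of these in the results was not tested beyond such values. With quantile normalization, Lpl gave 0.16, Scd1 0.17, Hspa8 0.25, Igf1 0.24 and Cd36 -0.18. With the 3' to 5' ratio in the model, Agpat3 gave -0.18, Stat5b -0.39, Rpl11 -0.30, Timp3 -0.12, Dhcr7 0.58, Pecam1 -0.29, Me1 1.02 and Igf1 -0.021. With the liver level in the model, Acly gave 0.21, Sc5d 0.25, Lep 0.69, Pfkl 0.31, Emc6 0.41, Clock 0.30, Nr4a1 -0.25 and C1ra -0.27. Without the 4 arrays low in epididymal markers, Egr1 gave -0.26, Dbp -0.48, Per3 -0.33 and Hsph1 0.34.

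Beside the mice restricted throughout, UC fat differed from UU fat in 65 of 12228 probe sets at an adjusted p under 0.05, and UU differed from CC in 0, in the same model. The UC minus UU median was -1.51 for epididymal markers, -1.33 for general epithelial markers and 0.99 for macrophage markers. The part of tissue content in the differences between UC and UU was not tested. Comparisons of UC and of UU with CC use the same CC arrays, and each value is given side by side. UC minus UU also reuses the UC arrays by which several of these genes were named. For Acss2, UU was at 1315, 2774, 3420.1 and 3039 (UU minus CC -0.16 ± 0.29, UC minus UU 1.50 ± 0.29). For Hmgcs1, UU was at 13880.0, 16980.0, 27984 and 14526 (UU minus CC -0.45 ± 0.21, UC minus UU 1.22 ± 0.21). In both genes no UU array exceeded the highest CC array. For Hspb8, UU was at 852, 948, 999.8 and 1029 (UU minus CC -0.021 ± 0.14), below the lowest UC array. For Ier2, UU was at 1196, 1127, 525 and 1696 (UU minus CC 0.25 ± 0.27), and for Nr1d2 at 5207, 4852, 5744 and 3494 (UU minus CC 0.34 ± 0.24). Cdkn1a in UU was at 4997, 4608, 4359 and 4119.5, between most CC and most UC arrays. Over the heat shock and chaperone list the UU minus CC median was 0.30, beside 0.21 for UC minus CC, although Hspb8 itself was not higher in UU. Over the mitosis list these medians were 0.17 and 0.21. They were -0.061 and 0.30 for fatty acid synthesis, -0.019 and 0.25 for cholesterol synthesis and 0.035 and -0.35 for immediate early genes.

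**Figure D5:**
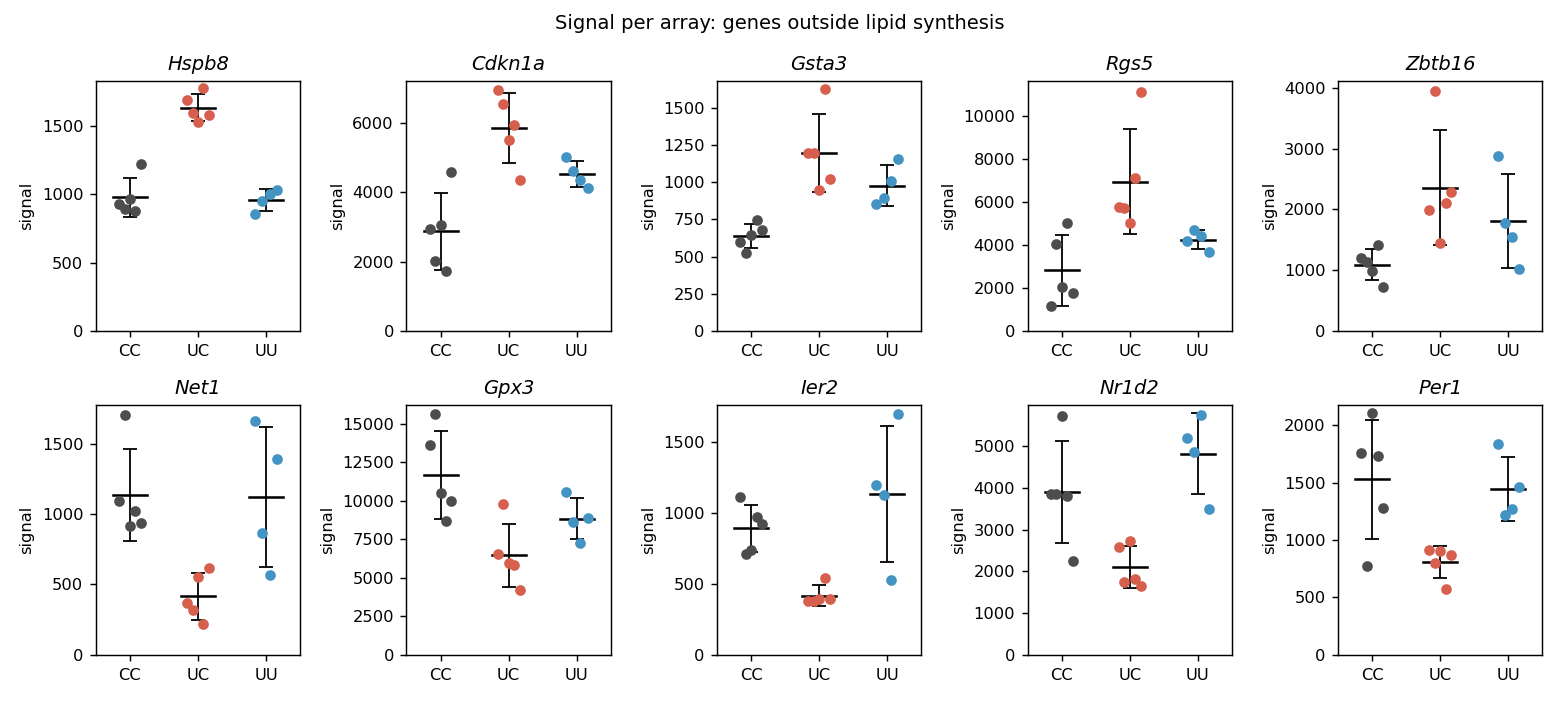
Signal on each array (linear axis from 0) for 10 genes outside lipid synthesis, by group. Points are arrays (5 CC, 5 UC, 4 UU), the horizontal line is the group mean and the bar 1 SD. UC and CC do not overlap for Hspb8, Gsta3, Zbtb16, Net1 and Ier2, and overlap for Cdkn1a, Rgs5, Gpx3, Nr1d2 and Per1.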

How the data were processed

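RNA of each mouse was hybridised to an Affymetrix mouse array. The deposited values are signal intensities, 1 per probe set and array, computed with MAS5 in GCOS 1.3, per the submitters' processing notes. The 2%-trimmed mean of each array was 1500.45 to 1500.57, so arrays had been scaled to 1 level by the authors. Probe sets take their genes from the platform annotation, with symbols from RefSeq GRCm38.p6 for 20351 of 20380 (691 probe sets have several genes, 1555 none, 64 are controls). From the deposited intensity, log2(signal + 32) was taken, and the dimmest 40% of probe sets by mean (below 472) were left out, which kept 12228. The offset understates changes of dim probe sets. One model per probe set was fitted over all 14 arrays and 3 groups with limma 3.58.1 (R 4.3.3, trended eBayes, 11 residual df), with Benjamini-Hochberg adjustment over 12228 and a threshold of 0.05. A gene in a list is read from its brightest probe set. Marker levels and the 3' to 5' ratio were compared by exact permutation of arrays. The model was tested on simulated data. Promoters come from RefSeq GRCm38.p6.

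Named genes are the 12 of smallest p on each side (by their probe set of smallest p), a panel of fat genes, and per list up to 6 members without overlap, or else the 2 of smallest p, with the 2 brightest of each cell type list. Fads2, Acacb, Fdps, Mvd, Fdft1, Srebf2 and the genes said to be picked out, with Xist, Cidea and Alb, were named after their values were seen. The groups compared and the gene lists were chosen with earlier results of these data known. Alternatives were other offsets, filters, scalings, covariates, array weights, the replicate number as a block, and arrays left out. For the liver level, leaving out arrays and the filter was added after seeing the data. The panel gene G6pdx is not analysed here.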

Additional observations from a re-analysis of the deposited data

Results flagged for a closer look

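The genes described, the 3' to 5' ratio and the epididymal and liver levels were examined for outlying arrays. In 31 of 338 groups of 5 CC or 5 UC arrays, 1 array lay far from the other 4. Dixon's test at the 95% level on the log2 scale was used. All 31 groups were of genes, and the signal of that array is given here. Chance alone gives about 1 group in 20. CC replicate 2 was that array in 12 groups and UC replicate 5 in 7, the 2 arrays high in Xist. CC replicate 2 was high for Net1 (1701.4), Mdh2 (43929), Cs (23439), Ndufs8 (13675), Cycs (44297), Nr4a1 (2037.1), C1ra (4388) and Xist (3980.6). It was low for Srebf1 (8617.6), Hsph1 (910.8), Uty (119.3) and Eif2s3y (58.6). UC replicate 5 was high for Cox8b (7788.4), Cox7a1 (4266.6), the mast cell protease Cma1 (1182.4) and Xist (5642.5), and low for Uty (137.4), Eif2s3y (7.9) and Kdm5d (339.5).

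The other outlying arrays were spread over 6 samples. CC replicate 4 stood apart for Scd1 (100200), Acta2 (17263) and Pecam1 (2853.2), and CC replicate 5 for Hspb8 (1223), Mrpl40 (1928.5) and Clock (1328.2). UC replicate 2 stood apart for Foxo1 (4856.6) and Pola1 (802.8), and UC replicate 4 for Ier2 (545.3) and Per1 (575.9). UC replicate 1 stood apart for the liver-type serpin Serpina1b (6433.6) and UC replicate 3 for Adipoq (43138).

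For 10 of the genes named (166 values), UC differed from UU at an adjusted p under 0.05 in limma, beside 65 of all 12228 probe sets tested. Several of the 10 were named because their UC arrays lay apart from CC, and the same UC arrays enter the comparison with UU. This count is therefore not separate evidence. UC and UU also differed in tissue markers, as given above, and the part of tissue content in these differences was not tested. The UC minus UU difference on the log2 scale was 1.4957 for Acss2, 1.2188 for Hmgcs1, 0.75224 for Hspb8, 1.1118 for Pfkl, 1.2464 for Mgll, 2.3167 for Mest, 2.7206 for Retnla, 3.8371 for Serpina1b, -1.2774 for Ier2 and -1.1902 for Nr1d2. Mest, Retnla (a protein of alternatively activated macrophages) and Mgll (a monoglyceride lipase) differed from CC by 0.059 ± 0.36, 0.43 ± 0.40 and 0.35 ± 0.23 in UC, none of them called. Dimmer tested Mgll probe sets differed from CC by 0.016 and -0.30 in UC. Serpina1b is on the liver marker list, and its UC arrays ran from 6434 to 12551. Its difference did not follow that list, whose UC minus UU median was 0.94 and whose UU minus CC median was 0.73.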

How the results depend on the processing

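No probe set was called under any alternative but 1. Without the 4 arrays low in epididymal markers, which leaves 3 UC and 3 CC arrays, 1 probe set was called, Rgs5, at 1.85 ± 0.23 (limma adjusted p = 0.0233). Over all arrays, other tested Rgs5 probe sets gave 0.019 and -0.23. Counts at an unadjusted p under 0.05 (515 higher, 616 lower) moved by more than 1.5 times, or were replaced by counts over fewer probe sets, as follows. With no filter 930 were lower, with 1 probe set per gene in the filter and the fit 297 were lower, with array weights 1040 were lower, with the 3' to 5' ratio as a covariate 328 were higher and 235 lower, with the liver level as a covariate 306 and 301, and without the 3 arrays of highest ratio 301 and 357. Counts without overlap (118 above, 109 below) were 166 below with no filter, 65 below with the dimmest 60% left out, 75 above and 58 below by gene, 409 and 539 without the 2 arrays high in Xist, 1023 and 1249 without the 4 arrays low in epididymal markers and 259 and 191 without the 3 arrays of highest ratio. Fewer arrays separate more easily, so the last 3 pairs are larger by construction. Leaving out 1 array gave 329 to 625 higher and 370 to 845 lower, with the lowest counts without UC replicate 4 (329 and 370), 409 lower without CC replicate 1, and 272 above and 311 below without overlap when UC replicate 5 was left out, from 118 and 109. The 3' to 5' difference was 0.41 to 0.60 over these. The replicate number as a block gave 542 higher, 636 lower and 0 called, and same-numbered CC and UC arrays correlated at 0.33, 0.42, 0.39, -0.08 and -0.26, so the numbers were not taken as pairs. For 166 values of named genes, 129 of 5262 alternative values changed sign, in 34 genes, none of them called. For the medians of 55 lists this happened more often, with 198 of 1753 alternative values changing sign, in 39 lists, so the sign of a list median near 0 depends on the setting.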
